A study of Mus musculus with 6 samples.

Results

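The 7 genes described here, Otx2, Fgf5, Pou3f1, Zic2, Foxd3, Lin28a and Lin28b, were grouped as markers of the exit of mouse embryonic stem cells (mESCs) from the naive state. Their levels in these undifferentiated cells differed widely, as given below. They were taken by gene symbol from a table of 23412 genes, and all 7 passed the filter on low values that left 14276 genes for testing. R1 is the wild type parental line, of strain 129Sv, and HN is the Htt-null line, in which the promoter and first exon of Htt (huntingtin) are deleted. The study compared the transcriptomes of the undifferentiated lines because HN cells were examined for their capacity to differentiate. Each line gave 3 libraries, and same-numbered libraries of R1 and HN were collected on the same one of 3 dates. Both lines were grown without feeder cells on gelatin, in serum with LIF and inhibitors of FGF receptor (SU5402), MEK (PD184352) and GSK3 (CHIR99021). The inhibitors act against FGF and ERK signaling and raise Wnt signaling, but signaling itself was not measured in these libraries. HN is a single line, and the 3 libraries of each line are cultures of that line. No p-value therefore reaches beyond cultures of these lines. The limma tests also moderated the variance of each gene toward that of genes of similar level. Their SEs and p-values thus rest partly on other genes.

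Naive mESCs resemble the epiblast of the blastocyst before implantation. When FGF and ERK signaling is released they pass through a formative state, in which Otx2, Pou3f1 and Fgf5 are switched on while naive factors such as Klf4 and Esrrb decline, and then reach a primed state that resembles the epiblast after implantation. Zic2 and Foxd3 encode transcription factors that act at enhancers during the transition, and the RNA-binding proteins Lin28a and Lin28b block maturation of the let-7 microRNAs.

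The libraries held between 1640391 and 3866717 reads on genes. Htt, the targeted gene, was at 230, 257 and 199 normalized counts in R1 replicates 1 to 3 and at 18.3, 58.1 and 54.2 in HN replicates 1 to 3 (log2 fold change −2.52, limma adjusted p = 0.0141). Markers of the labelled cell type were abundant in every library, with Pou5f1 between 1994 and 3597 normalized counts. The libraries of date 3 stood apart in both lines, with reads on 20675 and 20542 genes against 18133 to 19083 genes in the other 4.

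Two-sided limma tests of HN against R1 were read with and without collection date as a block that pairs the same-date libraries. Fold changes are on the scale log2(normalized count + 1), which understates the change of low genes, and a gene passed where its p-value adjusted over all 14276 tested genes was under 0.05. Without the block, 0 of the 7 genes passed by limma, against 0.245% of all tested genes in either direction, and edgeR and DESeq2 also called 0. At an unadjusted p under 0.05, limma without the block counted 1 gene higher (Zic2) and 1 lower (Otx2). Over all 14276 tested genes it counted 450 higher and 393 lower. With the block, 2 of the 7 genes passed as higher in HN (Zic2 and Foxd3), where the background was 5.46% of tested genes, and 1 passed as lower (Otx2), where the background was 4.02%. The directions of change were therefore mixed among the genes that passed with the block, and the remaining 4 genes did not pass with or without it. The shares and counts over all tested genes given here are also the background of the gene lists below.

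**Figure D1:**
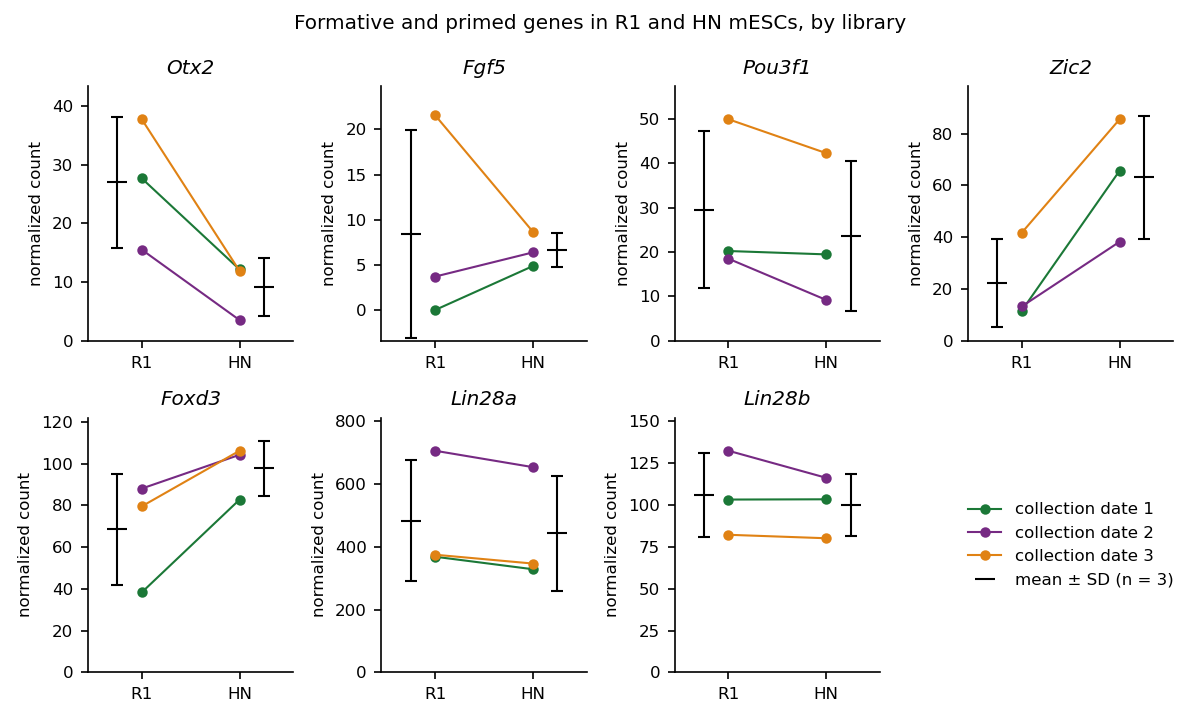
Normalized counts (vertical axes, linear, scaled per gene) of the 7 genes in R1 and HN, with 1 point per library, lines joining libraries of the same collection date, and bars for the mean ± SD of 3 libraries. All 3 lines fall for Otx2, Pou3f1 and Lin28a and climb for Zic2 and Foxd3, and Otx2 alone has all R1 points above all HN points.

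Otx2 encodes a homeodomain transcription factor that directs the naive to formative transition and later patterns the forebrain. It lies on chromosome 14 at chr14:48657677-48673819 on the minus strand of GRCm38, with up to 6 exons per transcript. Its normalized counts were 27.7, 15.5 and 37.7 in R1 replicates 1 to 3 and 12.2, 3.54 and 11.9 in HN replicates 1 to 3. Every HN library was below every R1 library, and Otx2 was the only one of the 7 genes without overlap between the lines in either direction; 5.54% of all tested genes had libraries of the lines not overlapping with HN lower, and 5.23% with HN higher. The means were 27.0 ± 11.1 in R1 and 9.21 ± 4.91 in HN (SD, n = 3 each). The log2 fold change was −1.52 (SE 0.54, limma adjusted p = 0.62), a 2.88-fold lower level in HN, and with collection date as a block the SE was 0.35 and the adjusted p 0.00308. The same-date differences were −1.12, −1.86 and −1.59 on the log2 scale. These values rest on few reads, 21 to 28 per R1 library and 5 to 11 per HN library. Without the libraries of date 2, where HN had 5 reads, the blocked log2 fold change was −1.35 and the adjusted p 0.0561. Part of the exon sequence, 154 bases, is shared with the antisense transcript Otx2os1, which had at most 2 reads in any library, and 168 bases with Gm49154 on the same strand.

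Zic2 encodes a zinc finger transcription factor that occupies enhancers in mESCs and epiblast cells. It lies at chr14:122475435-122479852 on the plus strand of the same chromosome as Otx2. Zic2 was at 11.7, 13.3 and 41.8 normalized counts in R1 replicates 1 to 3 and at 65.7, 38.3 and 85.6 in HN replicates 1 to 3. Within each date HN was the higher library, but the R1 library of date 3 was above the HN library of date 2, so the lines overlapped. The means were 22.3 ± 16.9 in R1 and 63.2 ± 23.7 in HN (SD, n = 3 each). The log2 fold change was 1.62 (SE 0.47, limma adjusted p = 0.415), a 3.08-fold higher level in HN, and with the block the SE was 0.25 and the adjusted p 2.36e-05. The same-date differences were 2.39, 1.46 and 1.02 on the log2 scale. Zic2 passed in 10 of 10 fits that kept the block, the blocked limma fit above included, with adjusted p from 7.29e-08 to 0.00215. These fits share the same libraries, most were chosen after seeing the data, and none dropped the variance trend of limma. Of 14 alternatives without the block it passed in 1, when R1 replicate 3 was left out (limma adjusted p = 0.0239).

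Otx2 and Zic2 thus moved in opposite directions with the block. Per kilobase of exon, Otx2 was at 6.56, 3.68 and 8.94 normalized counts in R1 replicates 1 to 3, and Zic2 at 4.07, 4.62 and 14.5. In HN replicates 1 to 3 Otx2 was at 2.88, 0.84 and 2.82 and Zic2 at 22.8, 13.3 and 29.7. Zic2 exceeded Otx2 in all 3 HN libraries, and in R1 it was below Otx2 on date 1 and above it on dates 2 and 3.

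Genes on chromosome 14 were shifted upward in HN as a whole, a measurement that touches both genes. The median log2 fold change of 459 tested genes there was 0.25, 78.4% were positive, and with the block 90 passed as higher and 3 as lower, of which Otx2 was one. Within 2 Mb of Zic2 the median over 18 tested genes was 0.24, and within 2 Mb of Otx2 it was also 0.24 over 18 genes, with 4 higher and 0 lower. The medians over chromosomes 4, 5 and 10, which carry the other 5 genes, were −0.00, −0.02 and 0.00. Zic5, Klf5, Spry2 and Gata4, described below, also lie on chromosome 14. Whether its shift contributes to the differences in Zic2 or in these genes was not tested.

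Among the nearest tested genes, Peli2 next to Otx2 was at 46.8, 28.1 and 51.2 normalized counts in R1 and at 80.3, 69.5 and 67.1 in HN (log2 fold change 0.81, adjusted p = 0.0062 with the block), opposite in direction to Otx2. Exoc5, on the other side of Otx2, had a log2 fold change of 0.09. Beside Zic2, the transcript 2610035F20Rik lay 236 bases away and had a log2 fold change of 0.49, and Pcca on the other side had 0.07, neither of which passed. Zic5, a paralog encoded on the opposite strand 9757 bases from Zic2, was at 16.0, 17.0 and 41.8 normalized counts in R1 replicates 1 to 3 and at 41.4, 53.9 and 73.6 in HN replicates 1 to 3. Its log2 fold change was 1.24, with an adjusted p of 3.78e-04 with the block and 0.511 without it. The neighboring paralogs Zic2 and Zic5 were thus both higher in HN on all 3 dates, and 20.3% of all tested genes were higher in all 3 same-date pairs.

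Foxd3 encodes a forkhead transcription factor required to maintain the epiblast and the neural crest. The gene has 1 exon, at chr4:99656299-99658622 on the plus strand. It was at 38.3, 88.0 and 79.5 normalized counts in R1 replicates 1 to 3 and at 82.7, 104 and 106 in HN replicates 1 to 3. HN was higher on each date, most of all on date 1, where the R1 library was the lowest of the 6, and the lines overlapped. The means were 68.6 ± 26.6 in R1 and 97.7 ± 12.99 in HN (SD, n = 3 each). The log2 fold change was 0.58 (SE 0.31, limma adjusted p = 0.982), and with the block the SE was 0.17 and the adjusted p 0.0272. This call rested on the libraries of single dates: the blocked adjusted p was 0.329 without date 1, with the log2 fold change at 0.33, and 0.0598 without date 2. DESeq2 with the block gave an adjusted p of 0.326. The neighbors Atg4c and Alg6 had log2 fold changes of 0.10 and 0.12 and did not pass, and 89 exon bases of Foxd3 overlap the predicted microRNA Gm23366. Of the distinct stretches of 50 bases in the annotated Foxd3 transcript, 2.59% were shared with other annotated transcripts, those of Gm23366 and Foxd4.

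The RefSeq sequences (GRCm38.p6) of the 250 bases before the start of Otx2 and Foxd3 are shown because these are the genes that passed in opposite directions and had an entry in the promoter table used; 5 of the 7 genes had one. Sequences run 5′ to 3′ on the strand of the gene, and capitals mark the dinucleotide CG. The Otx2 window, at chr14:48667645-48667894 on the minus strand, precedes the most upstream of the 4 Otx2 starts in that table and lies within the longer span of the gene given above, and the Foxd3 window is at chr4:99656049-99656298 on the plus strand.
Otx2: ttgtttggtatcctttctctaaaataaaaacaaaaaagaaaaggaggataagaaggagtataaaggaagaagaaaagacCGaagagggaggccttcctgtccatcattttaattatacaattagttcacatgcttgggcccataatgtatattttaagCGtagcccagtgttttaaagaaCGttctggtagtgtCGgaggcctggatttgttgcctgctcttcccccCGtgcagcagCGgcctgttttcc
Foxd3: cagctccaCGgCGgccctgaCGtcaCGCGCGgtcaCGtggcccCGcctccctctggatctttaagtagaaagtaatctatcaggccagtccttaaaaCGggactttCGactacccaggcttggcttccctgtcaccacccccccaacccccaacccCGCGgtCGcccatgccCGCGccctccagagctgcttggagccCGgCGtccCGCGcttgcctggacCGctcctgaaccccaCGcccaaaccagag

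The CG dinucleotide reads the same on both strands, and the median over 32851 promoters of the same length was 6. The Otx2 window held 6 (50.4% of all promoters held at least as many) and those before its other starts 8, 14 and 9. The Foxd3 window held 21 (16.3% of all promoters held at least as many) and that of Fgf5 24 (12.0%), whereas Lin28a and Lin28b held 7 and 6. The genes thus differed widely in CG content at their starts, and genes with many CG dinucleotides (Foxd3, Fgf5) and with few (Lin28a, Lin28b) included ones that did not pass.

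Fgf5 encodes a secreted growth factor whose mRNA is a standard marker of the epiblast after implantation. It lies at chr5:98254184-98277030 on the plus strand. Its normalized counts were 0, 3.70 and 21.6 in R1 replicates 1 to 3 and 4.87, 6.38 and 8.66 in HN replicates 1 to 3, from 0 to 16 reads per library. The R1 libraries spanned the whole range of the HN libraries, and HN was higher on dates 1 and 2 and lower on date 3. The mean was higher in R1 (8.42 ± 11.5) than in HN (6.64 ± 1.91) while the log2 fold change was 0.66 (SE 1.08, 95% confidence interval −1.70 to 3.02), so the sign depended on the scale. No difference in Fgf5 was detectable at this depth (limma adjusted p = 0.99998, and 0.607 with the block). In R1 replicate 1, the count of 0 allows up to 3 reads, which is 3.19 normalized counts in that library and covers counting error only.

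Pou3f1 (also called Oct6) encodes a POU domain transcription factor of the epiblast and the nervous system. The gene has 1 exon, at chr4:124656807-124660655 on the plus strand. Pou3f1 was at 20.2, 18.5 and 49.9 normalized counts in R1 replicates 1 to 3 and at 19.5, 9.21 and 42.2 in HN replicates 1 to 3. HN was the lower library on each date but by only 0.05, 0.93 and 0.23 on the log2 scale, and the ranges of the lines overlapped between 18.5 and 42.2 normalized counts. The log2 fold change was −0.41 (SE 0.54, limma adjusted p = 0.99998), and with the block its 95% interval ran from −0.99 to 0.17 (adjusted p = 0.456). The antisense gene Gm2164 overlaps 330 bases of the exon, and the library kit does not mark strand, so reads from the pair cannot be told apart there.

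**Figure D2:**
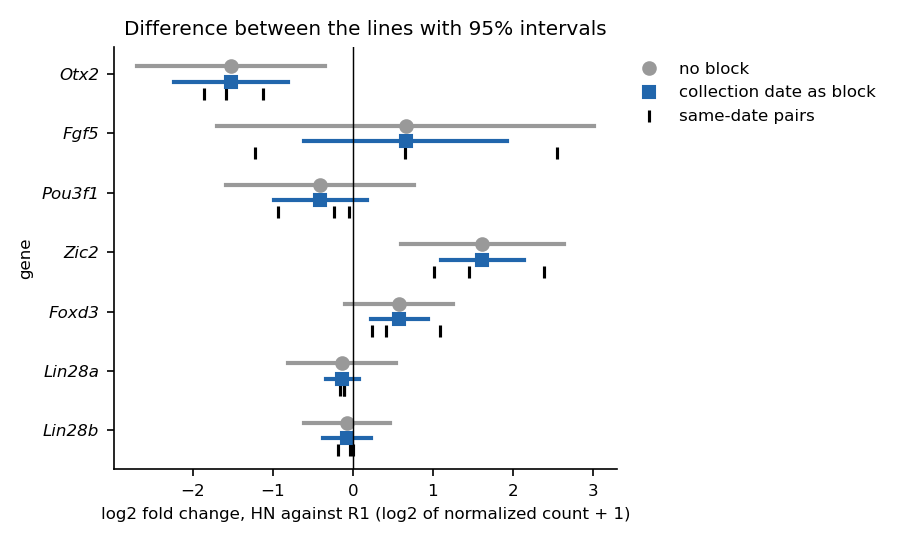
Log2 fold change of HN against R1 on the scale log2(normalized count + 1) (horizontal axis) for the 7 genes, with 95% confidence intervals from limma without the block (gray circles) and with collection date as block (blue squares), and ticks for the 3 same-date differences. Blue intervals exclude 0 for Otx2 on the lower side and for Zic2 and Foxd3 on the higher side.

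Lin28a and Lin28b had similar mean levels in the lines, and neither passed. Without the block, the 95% intervals of their log2 fold changes were −0.80 to 0.55 and −0.62 to 0.47. Lin28a, at chr4:134003330-134018841 on the minus strand, encodes the RNA-binding protein that recruits uridylyl transferases to precursors of let-7. It was at 368, 706 and 375 normalized counts in R1 replicates 1 to 3 and at 329, 654 and 347 in HN replicates 1 to 3. HN was slightly lower on each date, by 0.16, 0.11 and 0.11 on the log2 scale, and with the block the 95% interval of the log2 fold change was −0.33 to 0.07 (adjusted p = 0.506). The transcript Gm13061, on the opposite strand, overlaps 234 of its exon bases. Lin28a was one of 3 genes, with Otx2 and Pou3f1, that were lower in HN in all 3 pairs, as were 21.1% of all tested genes. Lin28b, its paralog, which acts on let-7 in the same direction, lies at chr10:45376620-45486395 on the minus strand. It was at 103, 132 and 82.2 normalized counts in R1 replicates 1 to 3 and at 103, 116 and 80.1 in HN replicates 1 to 3. Its log2 fold change was −0.07 (SE 0.25), with a blocked 95% interval of −0.37 to 0.23 (adjusted p = 0.845). The log2 ratio of Lin28b to Lin28a within a library was −1.82, −2.41 and −2.17 in R1 replicates 1 to 3 and −1.66, −2.48 and −2.10 in HN replicates 1 to 3, with means −2.13 ± 0.29 and −2.08 ± 0.41 (SD, n = 3 each). The difference of 0.06 was far below the spread between libraries, which includes that between dates. An exact two-sided permutation test gave p = 0.8, where 0.1 is the smallest p that 3 against 3 allows. It ignored the same-date pairs, in which the ratio differed by 0.17, −0.08 and 0.08 on dates 1 to 3.

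The nearest tested neighbors of Fgf5 (Prdm8 and Bmp3), Pou3f1 (Rragc and Fhl3), Lin28a (Dhdds and Ubxn11) and Lin28b (Bves and Hace1) had log2 fold changes from −0.24 to 0.39, and 0 of these 8 passed with the block.

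The levels of the 7 genes differed much more than the lines did. Per kilobase of exon, the mean over 6 libraries was 116 normalized counts for Lin28a, at percentile 91.5 of the tested genes with a length. Foxd3 followed at 35.8, Zic2 at 14.8, Lin28b at 11.4, Pou3f1 at 6.91, Otx2 at 4.29 and Fgf5 at 3.01. Of neighbors in this order, Lin28a and Foxd3 alone had ranges over libraries that did not overlap. Foxd3 was above Zic2 within each of the 6 libraries, and the order of the others changed between libraries, with the upper gene ahead in 4 or 5 of 6. For scale, the naive factor Nanog was at 1085 and the core factor Pou5f1 at 1322 normalized counts per kilobase. The formative markers Otx2, Fgf5 and Pou3f1 thus had the lowest levels of the 7, at percentiles 24.6, 17.6 and 35.1.

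All 7 genes differed by collection date when line was held constant (limma F test, adjusted p from 1.73e-07 for Lin28a to 0.0219 for Lin28b), and 46% of all tested genes did. Depth differed between dates as well. The date 2 libraries held 3604420 (R1) and 3866717 (HN) reads on genes, against 1640391 to 2426485 on dates 1 and 3. Date 2 and depth cannot be told apart, and the part of depth in the other date differences was not tested. The difference between dates was not small beside that between lines. From the lowest to the highest date, levels averaged over both lines spanned 0.61 log2 units for Lin28b and 2.61 for Fgf5. Otx2, Fgf5, Pou3f1 and Zic2 were highest on date 3, and Lin28a, Lin28b and Foxd3 on date 2. The date 3 libraries were higher than the earlier ones by 0.79 log2 units for Otx2, 1.97 for Fgf5, 1.45 for Pou3f1 and 1.21 for Zic2. Genes of low abundance shared this direction as a class, since 73.0% of 6617 tested genes with a mean of 5 to 50 normalized counts were higher on date 3 (median 0.55), whereas in the next class, 50 to 200, 24.4% were. The part of this shift of low genes in the values of Otx2, Fgf5, Pou3f1 and Zic2 on date 3 was not tested. The count of 7 depends on single libraries: it was 3 without R1 replicate 3 and 4 without R1 replicate 2 or HN replicate 2.

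**Figure D3:**
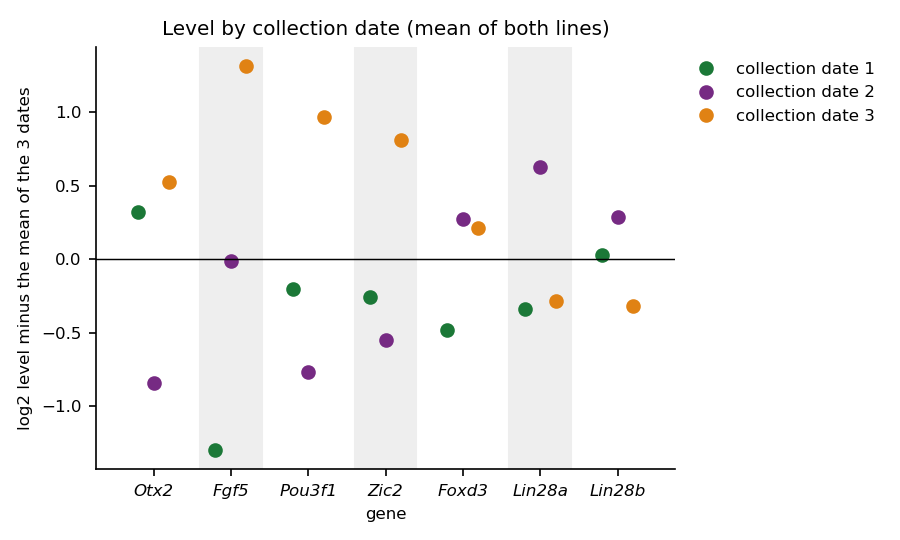
Level of each gene on each collection date, averaged over R1 and HN and given as the difference from the mean of the 3 dates (log2 of normalized count + 1, vertical axis). Date 3 is the highest point for Otx2, Fgf5, Pou3f1 and Zic2, and date 2 for Foxd3, Lin28a and Lin28b.

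Other formative and primed genes also moved in both directions. Of 17 tested genes in this list, 0 passed without the block (by limma, 3 were higher and 2 lower at an unadjusted p under 0.05), and with the block 4 rose and 4 fell in HN, with a median log2 fold change of 0.03 against −0.01 over all tested genes. Those that rose were Zic5, Lef1 (1.30, a Wnt effector), Cdh2 (0.96, N-cadherin) and Etv5 (0.36, an ETS factor). Those that fell were Utf1 (−1.063, a chromatin-associated factor of pluripotent cells), Dnmt3a (−0.96, a de novo DNA methyltransferase), Tcf15 (−0.54, a helix-loop-helix factor of primed-prone cells) and Etv4 (−0.43). Dnmt3a was at 85.2, 87.3 and 78.2 normalized counts in R1 replicates 1 to 3 and at 30.4, 49.6 and 50.9 in HN replicates 1 to 3 (adjusted p = 7.54e-04 with the block), with no overlap between the lines. Dnmt3b, its paralog, had a log2 fold change of −0.12 and did not pass. Without the libraries of date 2 the blocked counts were 1 higher (Zic5) and 3 lower, and without date 1 they were 3 and 2. DESeq2 with the block called 2 higher and 2 lower, with no adjusted p for 6 genes. Across all the lists described here, edgeR without the block called 0 genes and DESeq2 without the block called Nr0b1 and Zfp42 of the naive list alone.

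Naive pluripotency genes were shifted more to one side. With the block, 9 of 14 were higher in HN and 2 were lower, where the background was 5.46% and 4.02% of tested genes. A positive log2 fold change was found for 12 of 14, with a median of 0.43, and for 6922 of all 14276 tested genes. Without the block 0 passed (limma unadjusted p under 0.05: 5 higher and 2 lower). The 9 were Nr0b1 (1.28), Prdm14 (0.69), Tfcp2l1 (0.56), Gbx2 (0.55), Klf4 (0.52), Tbx3 (0.48), Klf5 (0.47), Esrrb (0.37) and Nanog (0.28), all transcription factors of the naive network. Zfp42 (also called Rex1) fell by 0.79 and Tcl1, a coactivator of AKT, fell by 0.78. The count of 9 was 4 without the libraries of date 2 and 7 without those of date 1 or of date 3, and the count of 2 did not change in these fits. By DESeq2 with the block the counts were 6 and 2. The core factors Pou5f1 (0.00), Sox2 (−0.00) and Sall4 (0.27) did not pass, although Sall4 did without date 3 and by edgeR with the block.

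**Figure D4:**
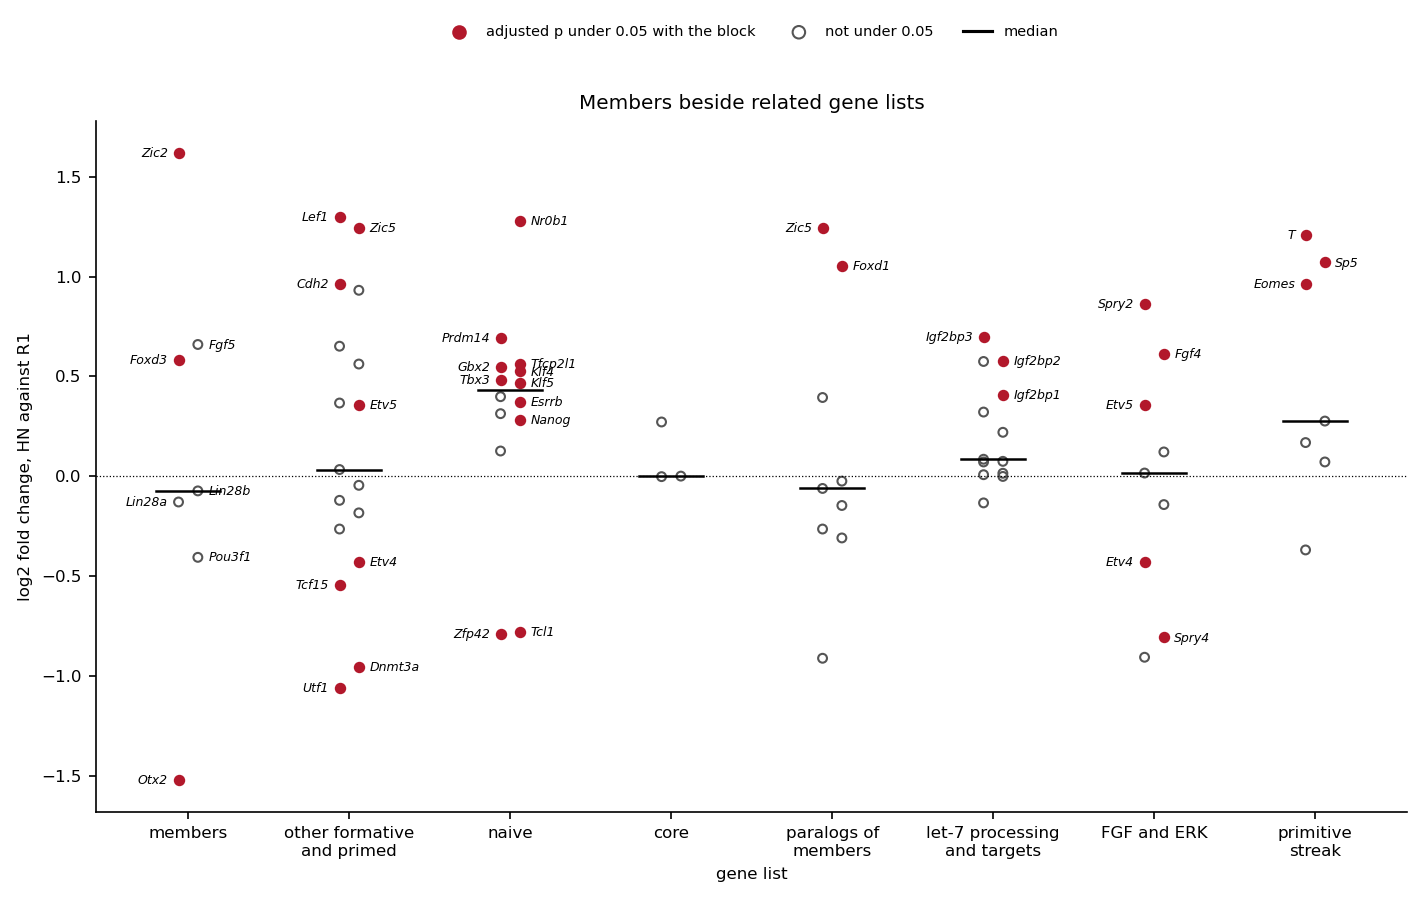
Log2 fold change of HN against R1 (vertical axis) for the tested genes of 8 lists (horizontal axis), with filled points for adjusted p under 0.05 with collection date as block and bars for medians. The 7 members run from −1.52 (Otx2) to 1.62 (Zic2), whereas the naive list has its median at 0.43.

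Paralogs of the 7 genes were mostly of low abundance, and 9 of 12 could be tested. With the block, Zic5 and Foxd1 (1.056, a forkhead gene) rose and 0 fell (Zic5 alone without date 1 or date 2). DESeq2 with the block called Zic5 alone, with no adjusted p for 6 genes. The median log2 fold change was −0.06, and without the block 0 passed (limma unadjusted p under 0.05: 2 higher and 0 lower). Otx1, the paralog of Otx2, was at 5.32, 3.70 and 21.6 normalized counts in R1 replicates 1 to 3 and at 1.22, 2.84 and 10.8 in HN replicates 1 to 3. Like Otx2 it was lower in HN on each date, but its log2 fold change of −0.91 did not pass (adjusted p = 0.358 with the block).

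Among 13 genes of let-7 processing and let-7 targets, 3 rose with the block, 0 fell, and 0 passed without it (limma unadjusted p under 0.05: 2 higher and 0 lower). All 3 encode IGF2 mRNA-binding proteins, Igf2bp1 (0.41), Igf2bp2 (0.58) and Igf2bp3 (0.70), and Igf2bp3 was the 1 that passed without the libraries of date 2. The processing genes Drosha (0.09), Dgcr8 (0.01) and Dicer1 (0.01), and Dis3l2 (−0.00), which degrades uridylated let-7 precursors, did not pass, nor did the targets Hmga1 (−0.13) and Hmga2 (0.57). Hmga2 passed by edgeR with the block and without date 3. Hmga1 rested on only 3 to 9 reads per library. Mature let-7 was not analysed here.

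Of 9 genes of the FGF and ERK pathway, 3 rose and 2 fell with the block, and 0 passed without it (limma unadjusted p under 0.05: 2 higher and 0 lower). The ligand Fgf4 (0.61), the feedback inhibitor Spry2 (0.86) and Etv5 rose, and the feedback inhibitor Spry4 (−0.81) and Etv4 fell. The counts were 3 and 1 without date 1 and 2 and 2 without date 2 or date 3, and DESeq2 with the block called 1 higher (Etv5) and 1 lower (Spry4). The receptor Fgfr1 (−0.14) and the immediate early gene Egr1 (−0.91) did not pass. Egr1 had only 0 to 9 reads per library. All 9 genes differed by collection date (limma F test), as did 46% of all tested genes. Averaged over both lines, Spry4 spanned 2.43 log2 units between its lowest and highest date.

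Markers of other cell types were read in the same libraries. Within bulk RNA, fewer cells of a type and less RNA per cell cannot be told apart. Of 7 tested primitive streak markers, T (1.21, brachyury), Sp5 (1.07) and Eomes (0.96) rose with the block and 0 fell (T and Eomes without date 1 or date 2). DESeq2 with the block called Eomes alone, with no adjusted p for 4 markers. The 9 markers summed to between 92.6 and 201 normalized counts in R1 and between 209 and 292 in HN. The lines did not overlap in that sum, but on date 3 it was 201 in R1 and 209 in HN. Eomes and T, which passed, had the highest means of the 9 (95.6 and 39.6 normalized counts). How often such a sum does not overlap was not tested. The defining streak markers Mixl1 (0.28) and Gsc (−0.37) did not pass, and Cer1 was at 0 in 4 of 6 libraries. Mixl1 had 1 to 13 reads per library and Gsc 4 to 31. Of 7 neural markers, Tubb3 fell (−0.76) and 0 rose, and the sums were between 296 and 337 in R1 and between 212 and 313 in HN. With the block, 0 of 6 primitive endoderm markers passed, their sums lying between 36.2 and 159 in R1 and between 38.3 and 142 in HN with the highest value on date 3 in each line. Among 4 tested trophectoderm markers 0 passed, with sums between 114 and 136 in R1 and between 136 and 191 in HN. Of 4 tested fibroblast markers Thy1 fell (−1.54) and 0 rose (0 fell without date 2), with sums of 35.5 to 98.4 in R1 and 11.3 to 65.0 in HN. DESeq2 with the block called 0 fibroblast markers, with no adjusted p for 4. The 2 tested genes of the Zscan4 group, which mark rare cells resembling the cleavage embryo, did not pass, with sums over 5 markers of 24.3 to 66.0 in R1 and 16.2 to 108 in HN. Members at the ends of these lists that did not pass were Nes (0.53), Gata4 (0.87), Sox17 (−0.74), Gata3 (1.47), Krt18 (0.11) and Col3a1 (0.11), and Zscan4c and Zscan4d were at 0.12 and −0.17. Without the block 0 genes of these marker lists passed by limma; at an unadjusted p under 0.05, 2 streak markers were higher, and 1 neural and 1 fibroblast marker were lower. The part of the streak markers in the differences of Zic2 and Foxd3 was not tested.

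The genes with the profile most like each of the 7, by Pearson correlation of log2 values over the 6 libraries among 7659 or 7658 genes with a mean of at least 50, were Ankrd49 (r = 0.997) and Snx6 (0.989) for Otx2, and Atp1b1 (0.991) and Pgap1 (0.988) for Zic2. For Foxd3 they were Rreb1 (0.986) and Fam105b (0.977), and for Fgf5 Dync2h1 (0.971) and Bard1 (0.966). For Pou3f1 they were Tes (0.989) and Tom1l1 (0.981), for Lin28a Wdr46 (0.998) and Scaf8 (0.997), and for Lin28b Enoph1 (0.997) and Tmem234 (0.996). These values describe 6 points that share collection dates and depth.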

How the data were processed

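Total RNA of R1 and HN mESCs was made into libraries with the Illumina TruSeq RNA kit (which does not mark strand) and sequenced as paired-end reads. The authors aligned the reads to mm10 with STAR, removed duplicates with Picard, counted exon reads per gene with HTSeq and deposited counts divided by DESeq2 size factors, a normalized signal per gene; tool versions and the annotation are not given in the sources used here. Removal of duplicates can lower the values of abundant genes. Every deposited value was a whole multiple of 1 read (100% within 0.01), so reads per library were recovered and used for edgeR 4.0.16 and DESeq2 1.42.0 (R 4.3.3) as alternatives. The main test was limma 3.58.1 with a variance trend on log2(value + 1) for 14276 genes with a mean of at least 5. It was two-sided, with Benjamini-Hochberg adjustment over these genes, and was tried on simulated data. The simulation held no difference between dates, so it cannot show how the test without the block behaves where dates differ. Collection dates in the labels pair same-numbered libraries, and their deviations correlated in every pair (r = 0.25, 0.69 and 0.77), although R1 replicate 1 correlated more with HN replicate 2 (r = 0.34) than with HN replicate 1. The fit with date as a block was an alternative. Intervals of fold changes come from the spread between libraries, moderated over genes of similar level. The limit set by a count of 0 covers counting error only. In the table, 27 lines hold a date in place of a gene name and were not used by name. Exon lengths and positions come from GENCODE (GRCm38). The members and lists were chosen with earlier results of these data known, so no pattern here is independent support, and no p-value was adjusted over a list alone. Named genes are the 7 members, Htt, list genes that passed or had the highest or lowest log2 fold change, the 2 genes with the most similar profile, and the nearest tested neighbors. Others (Dnmt3b, the let-7 processing genes, Hmga2, Fgfr1, Mixl1, Cer1) were named after their values were seen. One gene of the lists is not reported here by name.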

Additional observations from a re-analysis of the deposited data

How the results depend on the processing

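The count of members that passed as higher in HN was 0 without the block and 2 with it by limma and by edgeR, 1 by DESeq2 with the block, 1 after quantile normalization and 2 after median centring or a pseudocount of 0.1 or 10, each with the block. The alternatives with the block that left out a date, changed the scaling or changed the pseudocount were chosen after seeing the data. The count lower in HN was 0 without the block and 1 in each of these fits except DESeq2 with the block, which gave no adjusted p for Otx2. Leaving out both libraries of a date under the block gave 1 or 2 higher and 0 or 1 lower, and leaving out single libraries without the block gave 0 or 1 higher and 0 lower. The count of members that differed by date was 7, and 3 of 3 tested with a mean of at least 50, 4 after quantile normalization, 0 without a variance trend, and 3 to 7 when single libraries were left out. Over all genes, limma called 17 higher and 18 lower without the block and 780 and 574 with it, DESeq2 called 68 and 44 (334 and 178 with the block), and 0 passed without a variance trend. Leaving out R1 replicate 1 gave 4 and 4, and leaving out HN replicate 1 gave 3 and 10. Signs turned for values that did not pass. Leaving out single libraries, Fgf5 ranged from −0.46 to 1.79, Pou3f1 from −0.93 to 0.11, Lin28a from −0.45 to 0.18 and Lin28b from −0.24 to 0.10, and the log2 ratio of Lin28b to Lin28a from −0.15 to 0.26. Fgf5 was at −0.28 by edgeR, −0.34 by DESeq2, −0.46 without R1 replicate 1 and −0.29 under the block without date 1. Pou3f1 was at 0.03 without R1 replicate 3 and 0.11 without HN replicate 2. Lin28a was at 0.18, 0.05 and 0.01 without R1 replicate 2, HN replicate 1 and HN replicate 3, and Lin28b at 0.10 and 0.08 without R1 replicate 2 and HN replicate 3. The ratio of Lin28b to Lin28a differed by −0.08 without R1 replicate 2 and by −0.15 without HN replicate 1. The cause was not tested. Depth limits Otx2 and Fgf5 most, and a mean of at least 50 leaves no value for Otx2, Fgf5, Pou3f1 or Zic2.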
